A study of Homo sapiens with 18 samples.

Results

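The transcripts of 7 E2F genes (E2F1, E2F2, E2F3, E2F4, E2F6, E2F7 and E2F8) and 3 retinoblastoma family genes (RB1, RBL1 and RBL2) were followed by gene symbol through 18 RNA-seq libraries. These 10 genes stand among 13358 genes in the table, and all 10 were among the 11110 that passed the filter on low values (1 or more in 3 or more libraries). The libraries came from HUDEP1, an immortalised human erythroid progenitor line. Clone FL had full-length GATA1, the master regulator of erythroid genes, whereas 1D5 and 1KI9 were clones with GATA1s, a shorter isoform without the N-terminus. Each clone was sampled in 3 replicate libraries under expansion, in SFEM II medium. This held dexamethasone at 1 µM and doxycycline at 1 µg/mL, and as growth factors SCF (stem cell factor) at 50 ng/mL and EPO (erythropoietin) at 3 U/mL. Another 3 libraries per clone came from day 4 in differentiation medium, which held 2% fetal bovine serum, 3% human AB serum, 10 µg/mL insulin, 3 U/mL heparin and 1 mg/mL holo-transferrin. That medium kept erythropoietin, stem cell factor and doxycycline at the amounts used in expansion, and no dexamethasone is listed for it. Full-length GATA1 was represented by 1 clone, so genotype and clone cannot be told apart in any comparison with FL, and a value summed over a gene does not check which GATA1 isoform a library carried. The labels do not say that replicates were separate cultures, so p-values measure the spread between libraries, which may be technical.

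E2F proteins are transcription factors that control the genes of S phase entry. E2F1, E2F2 and E2F3 activate those genes, E2F4 and E2F6 mostly repress, and E2F7 and E2F8 are atypical repressors that bind DNA without a DP partner. RB1 binds mainly the activators, while RBL1 (p107) and RBL2 (p130) pair with E2F4, as in the DREAM complex of resting cells, until cyclin-dependent kinases phosphorylate the pocket proteins and release the E2Fs. In red cell development E2F2 and E2F4 are the members known for roles in cell cycle exit and in expansion of progenitors, and RB1 is needed for orderly terminal maturation. The N-terminal part of GATA1 has been described as binding RB1 and restraining E2F activity. HUDEP lines are known to have been immortalised with doxycycline-inducible papillomavirus E6 and E7 genes, and E7 protein binds pocket proteins, so all 3 clones share that background; viral transcripts were not analysed here.

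The stretches upstream of the start were searched for letters of 4 kinds, because the E2F genes are themselves known as E2F targets and GATA1 as an erythroid regulator. Sequences were the 250 bases before the start in the RefSeq promoter table (GRCh38.p14), which held entries for 9 of the 10 genes. Entries lay within 1000 bases of the GENCODE start for 8 of them. No entry was given for E2F8, and that of RB1 starts 172724 bases from the GENCODE start and was not used. The E2F letters were TTTCCCGC, TTTCGCGC, TTTGCCGC and TTTGGCGC on both strands. They occurred in 4 of the 8 genes (E2F1, E2F2, E2F3 and RBL1), against 2.79% of 35116 promoter entries. The GATA letters were AGATAA, the form AGATAG with G at the end, and the forms with T at the front, which are TGATAA with A at the end and TGATAG with G, all searched on both strands. They occurred in E2F6 and RBL1, against 22.3% of entries. The cell cycle homology letters TTTGAA were present in E2F3 alone, against 13.3% of entries, and CCAAT in 3 of the 8 (E2F1, E2F3 and E2F7), against 32%. Counted by gene with any entry, the shares of 27305 genes were 3.4% (E2F), 26.2% (GATA), 16.1% (TTTGAA) and 37% (CCAAT). The 4 E2F letter strings can overlap one another, and a match is a description of the letters, not a binding site.

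The stretches of the 4 genes with E2F letters are shown because these genes moved differently from one another at day 4. That of E2F6 is shown because it held the GATA letters in duplicate. E2F6 also had the largest positive day-4 difference from FL of the 10 genes in both GATA1s clones. RBL1, whose GATA letters are left in lower case, gave 0.01 in 1D5 and 0.13 in 1KI9 (limma, adjusted p = 0.915 and 0.258). Whether the letters bear on these differences was not tested. Capitals mark the E2F letters, or in E2F6 the GATA letters. Each runs 5′ to 3′ on the gene's strand and ends at the base before the start. The stretch of E2F1 is chr20:33686386-33686635, minus strand, that of E2F2 chr1:23531234-23531483, minus strand, that of E2F3 chr6:20401629-20401878, plus strand, that of RBL1 chr20:37095998-37096247, minus strand and that of E2F6 chr2:11466162-11466411, minus strand.
E2F1: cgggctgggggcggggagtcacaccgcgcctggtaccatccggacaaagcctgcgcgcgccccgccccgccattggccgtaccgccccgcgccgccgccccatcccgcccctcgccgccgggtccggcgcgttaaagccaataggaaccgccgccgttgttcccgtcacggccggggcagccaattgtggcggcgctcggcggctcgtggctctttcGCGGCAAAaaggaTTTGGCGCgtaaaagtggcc
E2F2: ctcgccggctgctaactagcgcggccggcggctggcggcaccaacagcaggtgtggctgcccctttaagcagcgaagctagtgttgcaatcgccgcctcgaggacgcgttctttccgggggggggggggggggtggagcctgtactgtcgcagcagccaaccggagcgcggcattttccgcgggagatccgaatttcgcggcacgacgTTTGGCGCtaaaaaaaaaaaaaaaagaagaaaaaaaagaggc
E2F3: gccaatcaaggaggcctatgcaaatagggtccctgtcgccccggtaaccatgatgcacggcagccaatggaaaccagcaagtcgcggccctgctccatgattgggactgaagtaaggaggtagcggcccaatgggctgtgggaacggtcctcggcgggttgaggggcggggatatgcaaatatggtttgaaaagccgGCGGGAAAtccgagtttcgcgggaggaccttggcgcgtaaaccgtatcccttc
RBL1: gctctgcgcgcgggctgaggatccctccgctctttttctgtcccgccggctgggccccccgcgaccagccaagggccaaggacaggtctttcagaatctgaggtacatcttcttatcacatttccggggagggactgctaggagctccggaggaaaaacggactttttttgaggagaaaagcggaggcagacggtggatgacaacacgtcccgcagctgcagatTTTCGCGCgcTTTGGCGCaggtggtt
E2F6: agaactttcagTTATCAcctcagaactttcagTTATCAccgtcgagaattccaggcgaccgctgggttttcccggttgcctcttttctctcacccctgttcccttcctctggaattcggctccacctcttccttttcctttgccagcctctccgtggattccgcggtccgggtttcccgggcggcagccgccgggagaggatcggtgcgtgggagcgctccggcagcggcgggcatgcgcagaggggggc
The E2F letters of E2F1 began 33 and 20 bases before the start, those of E2F2 42 bases, those of E2F3 53 bases and those of RBL1 26 and 16 bases. TTTGGCGC was shared by E2F1, E2F2 and RBL1. The GATA letters of E2F6, on the strand opposite to the gene and so printed as TTATCA, began 239 and 218 bases before the start.

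Expansion values are TPM (length-scaled transcript abundances, which allow levels of genes to be compared) and summed to between 943734 and 950736 per library. Day-4 values are a TPM-like signal with a further scaling and summed to between 814583 and 1081251, highest in FL, and read depth is unknown. Differences are given on the log2(value + 1) scale, which understates the change of low genes, with the standard error (SE) of the model. The median difference of all genes at day 4 was 0.26 for 1D5 minus FL and 0.32 for 1KI9 minus FL, so a value at day 4 is read relative to that shift. Differences after scaling libraries by the median of gene-wise ratios within each condition, which sets that shift near 0, are given as rescaled. In expansion the medians were 0.00 and 0.13. Globin genes took 38.2% to 39.4% of the FL signal at day 4, 19.3% to 20.6% in 1D5 and 12.4% to 13.3% in 1KI9. In expansion, FL replicate 1 stood apart with 10.6% against 5.55% and 5.73% in the other FL libraries. All 11 erythroid markers were present in every group, and 10 of 11 were lower in both GATA1s clones at day 4. The remaining marker, GATA1 itself, was higher in both clones, and in both conditions. FL averaged 154 ± 12.6 TPM (SD, n = 3) for GATA1 during expansion, against 651 ± 25.7 (1D5) and 635 ± 24.7 (1KI9). By day 4 FL averaged 231 ± 8.75, against 1059 ± 37.5 (1D5) and 925 ± 21.1 (1KI9). The summed level of 7 listed monocyte and neutrophil markers at day 4 ran from 44.4 to 48.3 in FL, 334 to 356 in 1D5 and 407 to 430 in 1KI9, with TYROBP and CSF1R at 0 in FL. In expansion it ran from 14.7 to 51.7 in FL, 59.1 to 72.5 in 1D5 and 222 to 265 in 1KI9, with CSF1R and ELANE at 0 in FL. For 6 listed mast cell, basophil and eosinophil markers the expansion sums were 539 to 877, 80.0 to 101 and 126 to 159, and the day-4 sums 351 to 369, 181 to 190 and 318 to 340, in the same order of clones. Single genes did not all follow these sums. Of the 5 tested, 2 were higher and 1 lower in both GATA1s clones in expansion (all genes 17.5% and 8.98%). At day 4, 4 were higher and 1 lower (all genes 51.2% and 14.3%). The medians were 1.05 and 1.43, against 0.06 and 0.29 for all genes. Sums of 4 listed megakaryocyte markers were 0.31 to 0.56, 1.54 to 3.05 and 8.40 to 11.5 in expansion and 4.02 to 4.46, 19.98 to 23.3 and 16.2 to 17.7 at day 4, with GP9 and VWF at 0 in expansion. Lymphocyte and stromal sums stayed at or below 0.78 and 3.56. The part of these cell types in the results below was not tested, and in bulk RNA fewer cells of a type and less RNA per cell cannot be told apart.

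E2F4 was the most abundant transcript of both families in all 6 groups, and E2F7 the least abundant. In FL expansion E2F4 stood at 101 ± 1.5 TPM (SD, n = 3), followed by E2F1 at 25.1 ± 3.26, RB1 at 22.9 ± 1.65 and E2F6 at 22.6 ± 3.15. The libraries of E2F1, RB1 and E2F6 overlapped with their neighbours in that order. E2F3 (17.5 ± 1.25 TPM) and RBL2 (16.9 ± 1.77 TPM) also overlapped. Below them came RBL1 (11.8 ± 0.512 TPM), E2F2 (9.24 ± 1.39 TPM), E2F8 (7.47 ± 0.994 TPM) and E2F7 (2.71 ± 0.650 TPM), where E2F2 and E2F8 overlapped. At day 4 in FL the order was E2F4, RBL2, E2F2, RB1, E2F3, E2F1, E2F6, RBL1, E2F8 and E2F7, with overlap only between RB1 and E2F3. RBL2 and E2F2 had moved up and E2F1 and E2F6 down, whereas at day 4 in both GATA1s clones E2F2 held the place between the middle group of genes and RBL1.

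**Figure D1:**
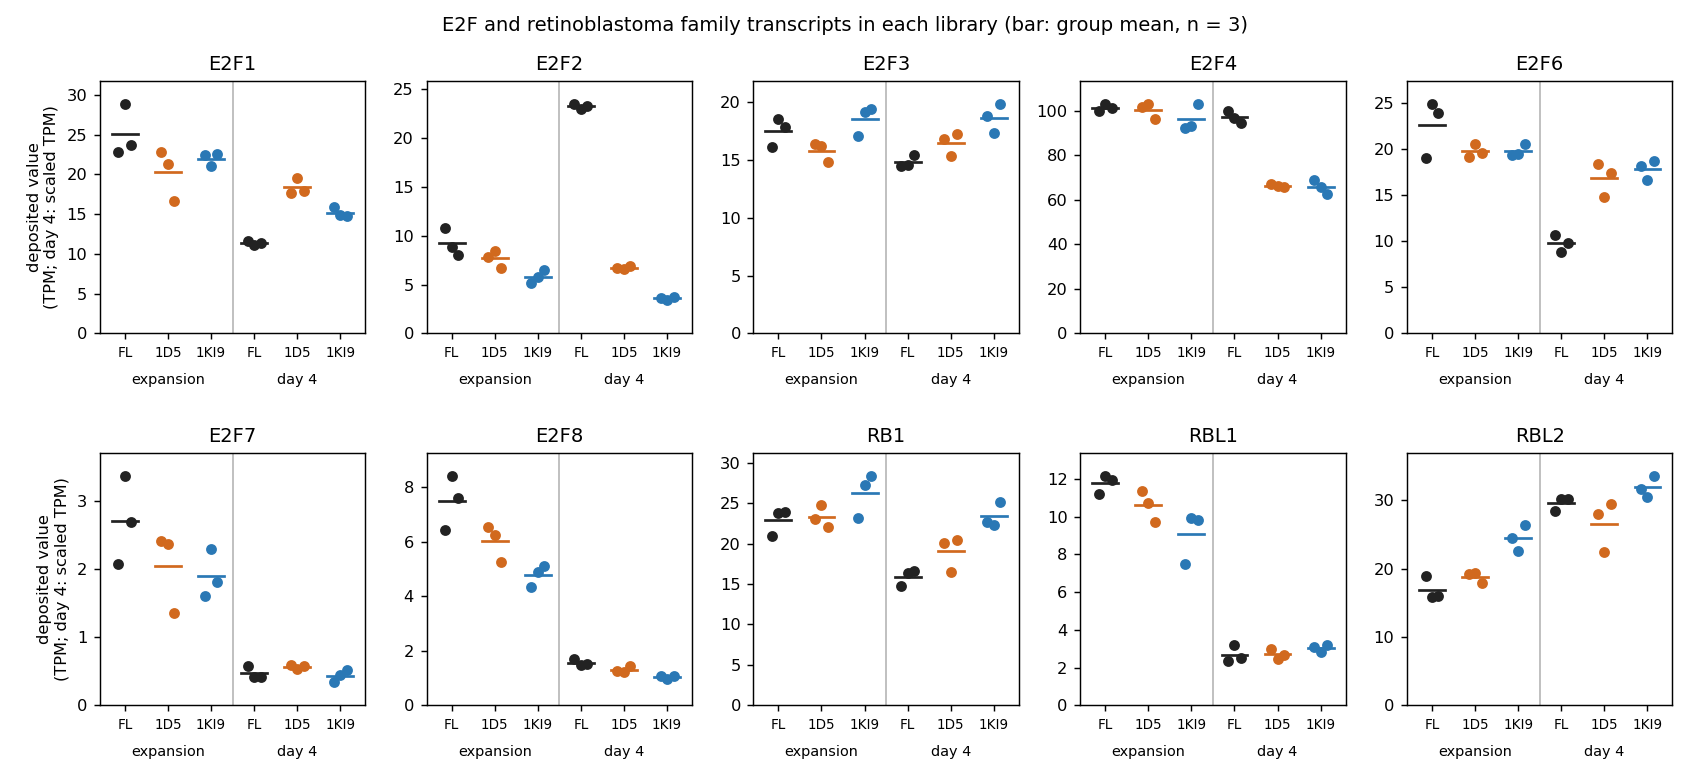
Deposited value of each gene in each of the 18 libraries (y axis, TPM in expansion and scaled TPM at day 4, from 0), by clone and condition (x axis); points are libraries and bars group means (n = 3). E2F2 at day 4 lay between 23.0 and 23.5 in FL and between 3.40 and 6.90 in the GATA1s clones, while E2F7, E2F8 and RBL1 were low at day 4 in all 3 clones.

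E2F2 (ENSG00000007968.7, chr1:23506430-23531220, minus strand), an activator known for its rise in maturing red cells, differed most between the clones. In FL it was 10.8, 8.89 and 8.06 TPM in expansion and 23.5, 23.0 and 23.3 at day 4. The 1D5 libraries gave 7.88, 8.48 and 6.71 TPM in expansion and 6.69, 6.65 and 6.90 at day 4, and those of 1KI9 5.17, 5.77 and 6.51 TPM and then 3.67, 3.40 and 3.75. At day 4 every FL library was above every GATA1s library, and every 1D5 library above every 1KI9 library. The day-4 log2 difference from FL was −1.65 (SE 0.10, adjusted p = 7.93e-11) in 1D5 and −2.40 (SE 0.10, adjusted p = 3.77e-13) in 1KI9. These are 3.13-fold and 5.27-fold lower in (value + 1), which is less than the fold of the values themselves. Rescaled, the differences were −1.94 and −2.72. By the mean of the clones, 109 of 11083 genes tested were lower than E2F2 at day 4. In expansion 1KI9 was lower than FL by 0.58 on the log2 scale (adjusted p = 5.63e-05) with no overlap, and 1D5 gave −0.23 (adjusted p = 0.0782) with overlapping libraries.

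Between the conditions, E2F2 rose in FL by a log2 difference of 1.25 (SE 0.10, adjusted p = 7.76e-10), against a median of −0.38 for all genes. In 1KI9 it fell by 0.56 (adjusted p = 4.7e-05), and in 1D5 the difference was −0.16 (adjusted p = 0.14). The difference of the clone effect between the conditions was −1.61 (SE 0.12, adjusted p = 5.59e-09).

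E2F1 (ENSG00000101412.13, chr20:33675683-33686404, minus strand), the activator most tied to S phase entry and to apoptosis, went the other way at day 4. FL libraries gave 22.8, 28.9 and 23.8 TPM in expansion and 11.6, 11.1 and 11.4 at day 4. The 1D5 libraries gave 22.9, 21.3 and 16.6 TPM and then 17.6, 19.6 and 17.96, and the 1KI9 libraries 22.4, 21.0 and 22.6 TPM and then 15.9, 14.9 and 14.8. Expansion libraries of FL and 1D5 overlapped, and day-4 libraries of the 3 clones did not. E2F1 at day 4 was higher than in FL by 0.65 (SE 0.10, adjusted p = 1.17e-05) in 1D5 and by 0.39 (SE 0.10, adjusted p = 0.0014) in 1KI9. Rescaled, it was 0.36 in 1D5 and still called, and 0.05 in 1KI9 with an adjusted p of 0.579. From expansion to day 4 it fell by 1.07 in FL (adjusted p = 6.97e-09) and by 0.50 in 1KI9 (adjusted p = 0.000142), with −0.12 in 1D5 (adjusted p = 0.255). The 1D5 call in expansion (−0.30, adjusted p = 0.0246) was lost without 1D5 replicate 3 (−0.17, adjusted p = 0.152) and without FL replicate 2.

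E2F3 (ENSG00000112242.15, chr6:20401906-20493715, plus strand), the third activator, varied least of the 3. Its values ran from 16.1 to 18.5 TPM in FL, 14.8 to 16.3 in 1D5 and 17.0 to 19.4 in 1KI9 in expansion, and from 14.5 to 15.4, 15.3 to 17.2 and 17.3 to 19.8 at day 4. FL and 1D5 overlapped at day 4, and 1KI9 did not overlap with either. The day-4 difference was 0.31 (SE 0.08, adjusted p = 0.00117) in 1KI9 and 0.14 (SE 0.08, adjusted p = 0.104) in 1D5. Rescaled, these were −0.04 (adjusted p = 0.585) and −0.15 (adjusted p = 0.0229), so that the sign depended on the scaling. The 1D5 difference then passed as lower, and that of 1KI9 no longer passed. From expansion to day 4 it fell by 0.22 in FL (adjusted p = 0.0102), and rescaled that was −0.06 (adjusted p = 0.307). The other clones gave 0.06 and 0.01 (adjusted p = 0.501 and 0.931).

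Shares within a library do not depend on a scaling by a common factor for all its genes. Whether the further day-4 scaling was of that kind is not given. Of the summed E2F1, E2F2 and E2F3 values, E2F2 made up 17.9% ± 3.29 (SD, n = 3) in FL expansion and 47.1% ± 0.499 in FL at day 4. In 1D5 the share was 17.6% ± 0.851 and then 16.2% ± 0.190, and 1KI9 gave 12.5% ± 0.917 and then 9.64% ± 0.123. FL replicate 1 had the highest E2F2 share among expansion libraries, 21.7%, beside the highest globin share. E2F1 made up 48.3% ± 2.73 in FL expansion and 22.9% ± 0.348 at day 4, against 44.2% ± 2.49 in 1D5 and 40.7% ± 1.79 in 1KI9 at day 4. The shares of E2F1 and of E2F2 at day 4 did not overlap between FL and either GATA1s clone. With 3 libraries against 3, an exact permutation test cannot give p below 0.1, and none was run on the shares. The 3 activators summed to 1.01 ± 0.0717 of the pocket protein genes in FL expansion and 1.03 ± 0.0569 at day 4. The 1KI9 ratio was lower, 0.775 ± 0.0299 and then 0.642 ± 0.0231, with no overlap in either condition. In 1D5 it was 0.827 ± 0.0569 and 0.870 ± 0.116, and overlapped with FL at day 4.

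**Figure D2:**
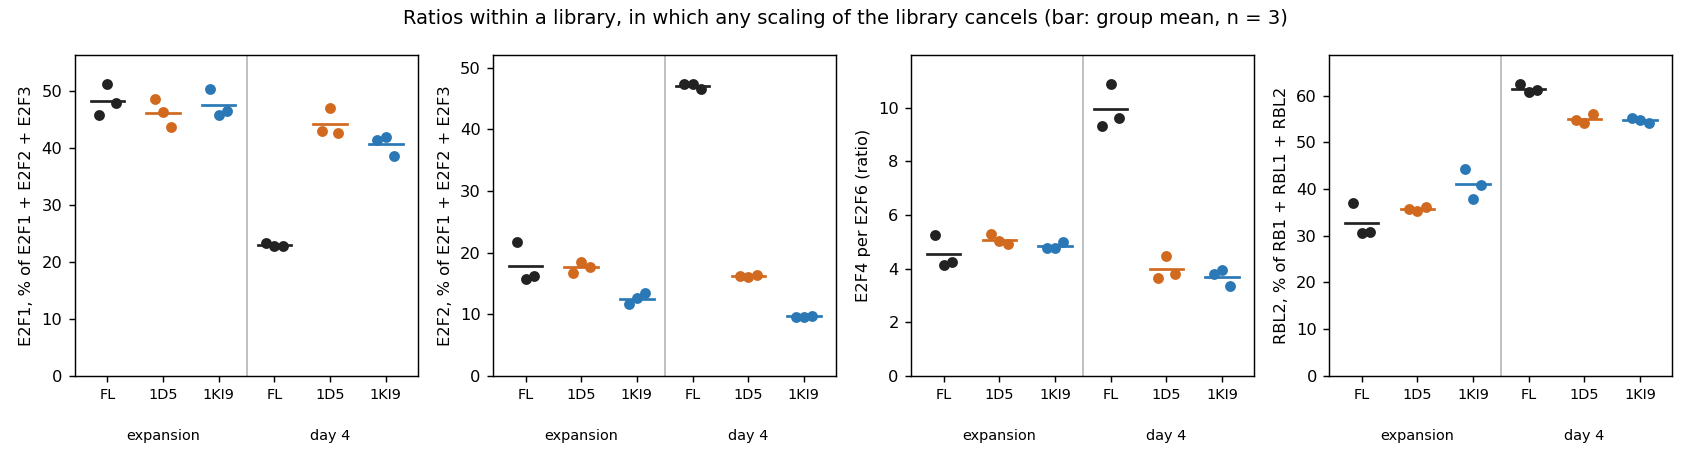
Shares and ratios computed within each library (y axes, percent or ratio, from 0) by clone and condition (x axis); points are libraries and bars group means (n = 3). E2F2 took 47.1% of the activator signal in FL at day 4 and 9.64% to 16.2% on average in the GATA1s clones, and E2F4 per E2F6 was 9.95 in FL at day 4 against 3.70 and 3.98.

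E2F4 (ENSG00000205250.9, chr16:67192169-67198918, plus strand), the repressor that joins RBL1 or RBL2 in DREAM, overlapped between all 3 clones in expansion. FL gave 99.9, 103 and 101 TPM, 1D5 102, 103 and 96.2 TPM, and 1KI9 92.0, 93.0 and 103 TPM. No clone difference passed as deposited, whereas rescaled 1KI9 was lower than FL by 0.23 (adjusted p = 0.000479) and lower than 1D5 by 0.20 (adjusted p = 0.00282). At day 4 FL gave 99.9, 96.7 and 94.4, 1D5 66.8, 66.3 and 65.9, and 1KI9 69.0, 65.9 and 62.8. Every FL library at day 4 was above every GATA1s library, and the GATA1s clones overlapped with each other. The difference from FL was −0.54 (SE 0.05, adjusted p = 5.52e-08) in 1D5 and −0.55 (SE 0.05, adjusted p = 3.18e-08) in 1KI9, or −0.85 and −0.91 rescaled. E2F4 fell from expansion to day 4 by 0.59 in 1D5 and by 0.54 in 1KI9 (adjusted p = 7.92e-09 and 4.23e-08), and FL gave −0.06 (adjusted p = 0.273).

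E2F6 (ENSG00000169016.17, chr2:11444375-11466177, minus strand), a repressor that acts through a variant Polycomb complex and not through pocket proteins, had the opposite pattern. FL gave 19.0, 24.9 and 23.9 TPM in expansion and 10.7, 8.87 and 9.81 at day 4. The 1D5 values were 19.2, 20.5 and 19.6 TPM and then 18.3, 14.8 and 17.4, and those of 1KI9 19.3, 19.5 and 20.6 TPM and then 18.2, 16.7 and 18.7. In expansion neither clone passed against FL as deposited, and rescaled 1KI9 was lower by 0.31 (adjusted p = 0.00303). At day 4 every GATA1s library was above every FL library. The difference was 0.72 (SE 0.10, adjusted p = 2.78e-06) in 1D5 and 0.81 (SE 0.10, adjusted p = 5.56e-07) in 1KI9, and 0.43 and 0.47 rescaled, both still called. E2F6 fell from expansion to day 4 by 1.12 in FL (adjusted p = 2.88e-09) and by 0.23 in 1D5 (adjusted p = 0.0391), with −0.14 in 1KI9 (adjusted p = 0.185). The 1D5 call was lost without any 1 of its expansion libraries, or without day-4 replicate 2 (−0.14, adjusted p = 0.206). E2F4 per E2F6, a ratio in which a common factor of a library cancels, was 4.54 ± 0.623 in FL expansion and 9.95 ± 0.834 at day 4. In the GATA1s clones at day 4 it was 3.98 ± 0.446 (1D5) and 3.70 ± 0.308 (1KI9).

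The atypical repressors were low and fell in all clones. E2F8 (ENSG00000129173.13, chr11:19224063-19241620, minus strand) was 6.43, 8.41 and 7.58 TPM in FL expansion, 6.54, 6.23 and 5.26 in 1D5 and 4.33, 4.87 and 5.12 in 1KI9. At day 4 its values lay between 1.46 and 1.70 in FL, 1.22 and 1.43 in 1D5 and 0.970 and 1.08 in 1KI9. Its fall was 1.72 in FL, 1.6 in 1D5 and 1.5 in 1KI9 on the log2 scale (adjusted p between 6.03e-12 and 1.54e-10). In expansion E2F8 was lower than in FL in 1D5 by 0.27 (SE 0.10, adjusted p = 0.0385), with overlapping libraries, and in 1KI9 by 0.55 (SE 0.10, adjusted p = 8.59e-05), with none. The 1D5 call was lost without any of 4 libraries, namely FL replicates 2 and 3 and 1D5 replicates 2 and 3, with −0.19 (adjusted p = 0.172) without 1D5 replicate 3. At day 4 the difference was −0.32 in 1KI9 (adjusted p = 0.00553) and −0.15 in 1D5 (adjusted p = 0.167), and rescaled the latter was −0.34 and passed (adjusted p = 0.00086).

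E2F7 (ENSG00000165891.16, chr12:77021247-77065580, minus strand) reached a value of 1 only in the 9 expansion libraries, where it ran from 2.07 to 3.37 TPM in FL, 1.35 to 2.41 in 1D5 and 1.6 to 2.29 in 1KI9. At day 4 it lay between 0.340 and 0.590 in all 9 libraries, with the clones overlapping. It fell by 1.32 in FL, 0.94 in 1D5 and 1.01 in 1KI9 (adjusted p = 5.76e-08, 6.21e-06 and 3.25e-06). Against FL in expansion, 1KI9 was lower by 0.35 with overlapping libraries (adjusted p = 0.0397), a call lost without 1 of 4 libraries (FL replicates 2 and 3, 1KI9 replicates 1 and 3), at −0.22 with adjusted p = 0.199 without FL replicate 2. E2F7 and E2F8 together made up 5.46% ± 0.613 of the summed E2F signal in FL expansion and 1.28% ± 0.111 at day 4.

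RB1 (ENSG00000139687.15, chr13:48303726-48599436, plus strand) encodes the pocket protein that restrains the activator E2Fs. It was 21.0, 23.8 and 24.0 TPM in FL expansion, 23.0, 24.8 and 22.1 in 1D5 and 23.2, 27.3 and 28.4 in 1KI9. Neither clone differed from FL by the test. At day 4 FL gave 14.7, 16.4 and 16.6, 1D5 20.1, 16.5 and 20.5, and 1KI9 22.7, 22.3 and 25.2. The 1KI9 libraries were above all others, and 1D5 replicate 2 lay within the FL range. RB1 was higher than in FL at day 4 by 0.53 (SE 0.09, adjusted p = 4.34e-05) in 1KI9 and by 0.24 (SE 0.09, adjusted p = 0.0248) in 1D5. Rescaled, these were 0.18 and −0.05, so the 1D5 value lay close to the median of all genes. The 1D5 call was also lost without FL replicate 1, 1D5 replicate 1 or 1D5 replicate 3, at 0.19 with adjusted p = 0.11 in the last case. RB1 fell from expansion to day 4 by 0.50 in FL (adjusted p = 5.66e-05) and by 0.28 in 1D5 (adjusted p = 0.00861), with −0.16 in 1KI9 (adjusted p = 0.122). The 1D5 call was lost without 1D5 day-4 replicate 2 (−0.19, adjusted p = 0.0663).

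RBL1 (ENSG00000080839.11, chr20:36996349-37095995, minus strand), the pocket protein of cycling cells and itself an E2F target, was 11.2, 12.2 and 11.9 TPM in FL expansion, 11.4, 10.7 and 9.72 in 1D5 and 7.49, 9.94 and 9.82 in 1KI9. At day 4 all 9 libraries lay between 2.33 and 3.20 and the clones overlapped. RBL1 fell by 1.80 in FL, by 1.65 in 1D5 and by 1.32 in 1KI9 (adjusted p = 1.42e-11, 8.95e-11 and 3.09e-09). The 1D5 difference from FL at day 4, 0.01 as deposited, became −0.22 when rescaled (adjusted p = 0.0474). In expansion 1KI9 was lower than FL by 0.35 (SE 0.11, adjusted p = 0.00901), and without 1KI9 replicate 1 the value was −0.23 (adjusted p = 0.0686).

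RBL2 (ENSG00000103479.16, chr16:53433977-53491649, plus strand), the pocket protein of resting and differentiated cells, was the only gene of the 10 that rose in all 3 clones. It went from 18.9, 15.8 and 16.0 TPM to 28.5, 30.2 and 30.2 in FL, from 19.2, 19.3 and 17.96 to 28.0, 22.4 and 29.4 in 1D5 and from 24.5, 22.6 and 26.4 to 31.7, 30.4 and 33.6 in 1KI9. The log2 rise was 0.78 in FL, 0.47 in 1D5 and 0.37 in 1KI9 (adjusted p = 2.27e-07, 0.000126 and 0.00128). In expansion RBL2 was higher in 1KI9 than in FL by 0.51 (SE 0.09, adjusted p = 0.000102), with no overlap. At day 4 neither clone differed from FL by the test as deposited (−0.16 in 1D5, adjusted p = 0.124, and 0.10 in 1KI9, adjusted p = 0.306), whereas rescaled both were lower, by 0.46 and 0.25. The share of RBL2 in the 3 pocket protein genes was 32.8% ± 3.69 in FL expansion and 61.5% ± 0.955 at day 4. At day 4 it was 54.9% ± 0.937 in 1D5 and 54.7% ± 0.458 in 1KI9, below all FL libraries. RBL1 made up 22.8% ± 0.842 of the pocket gene signal in FL expansion and 5.55% ± 0.758 at day 4.

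**Figure D3:**
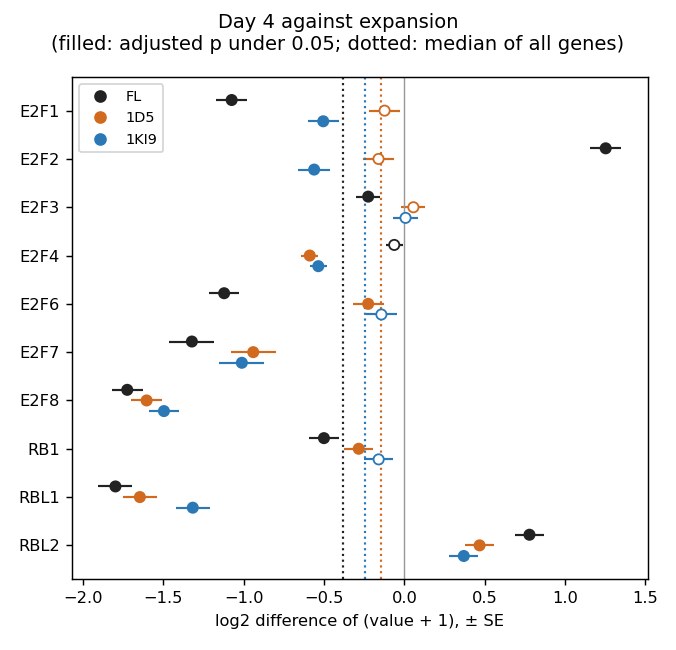
Log2 difference of (value + 1), day 4 minus expansion, with SE (x axis), for each gene (y axis) in FL, 1D5 and 1KI9. Filled points had adjusted p under 0.05, and dotted lines mark the median of all genes, −0.38, −0.15 and −0.25. E2F7, E2F8 and RBL1 lay far below those medians in all clones, RBL2 above 0 in all, and E2F2 above 0 in FL alone, at 1.25.

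Counted over the families, 9 of the 10 genes changed between conditions in FL (2 higher, 7 lower), where 83.7% of all genes were called, 26.5% higher and 57.2% lower. In 1D5, 7 genes changed (1 higher, 6 lower) against 78.9% of all genes (31.9% higher, 47.0% lower), and in 1KI9 also 7 (1 higher, 6 lower) against 74.4% (22.2% higher, 52.2% lower). RBL2 rose in all 3 clones, as did 15.9% of all genes, and E2F7, E2F8 and RBL1 fell in all 3, as did 40.5%. These shares were near the background. Condition cannot be told apart from medium, time or the separate scaling of the expansion and day-4 values. With libraries scaled to the signal outside globin and mitochondrial genes, 5 of these falls no longer passed. They were E2F3 in FL (0.14, adjusted p = 0.089), RB1 in FL (−0.14, adjusted p = 0.185) and 1D5 (0.01, adjusted p = 0.924), E2F6 in 1D5 (0.07, adjusted p = 0.533) and E2F1 in 1KI9 (−0.17, adjusted p = 0.103). E2F4 in FL then passed as higher (0.32, adjusted p = 1.84e-06), as did E2F3 in 1D5 and 1KI9, both at 0.35.

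Counted over both GATA1s clones, 1 of the 10 genes was called against FL in expansion (E2F8, lower), where 8.98% of all genes were lower in both, 17.5% higher and 26.4% either. In 1KI9 alone 5 were called (E2F2, E2F7, E2F8 and RBL1 lower, RBL2 higher), against 59.6% of all genes (18.5% lower, 41.0% higher). In 1D5 alone 2 were called (E2F1 and E2F8, both lower), against 31.1% of all genes (12.4% lower, 18.7% higher). Rescaled, 3 were lower in both clones (E2F1, E2F2 and E2F8), against 13.7% of all genes lower, 16.5% higher and 30.2% either. Without FL replicate 1, the library with the high globin share, 3 genes were lower in both clones (E2F6, E2F7 and E2F8), against 11.7% of all genes. At day 4, 5 of the 10 were called in both clones (E2F1, E2F6 and RB1 higher, E2F2 and E2F4 lower), where 51.2% of all genes were higher, 14.3% lower and 65.5% either. In 1D5 alone the same 5 were called, against 71.1% of all genes (54.8% higher, 16.3% lower). In 1KI9 alone 7 were called, with E2F3 higher and E2F8 lower besides, against 76.4% of all genes (58.9% higher, 17.5% lower). Rescaled, 1 was higher (E2F6) and 4 were lower (E2F2, E2F4, E2F8 and RBL2), against 27.6% and 29.4% of all genes (56.9% either). The contrasts of 1D5 and of 1KI9 share their FL libraries. A change of at least 2-fold in (value + 1) in both clones was reached by E2F2 alone, at day 4, as by 10.6% of all genes.

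**Figure D4:**
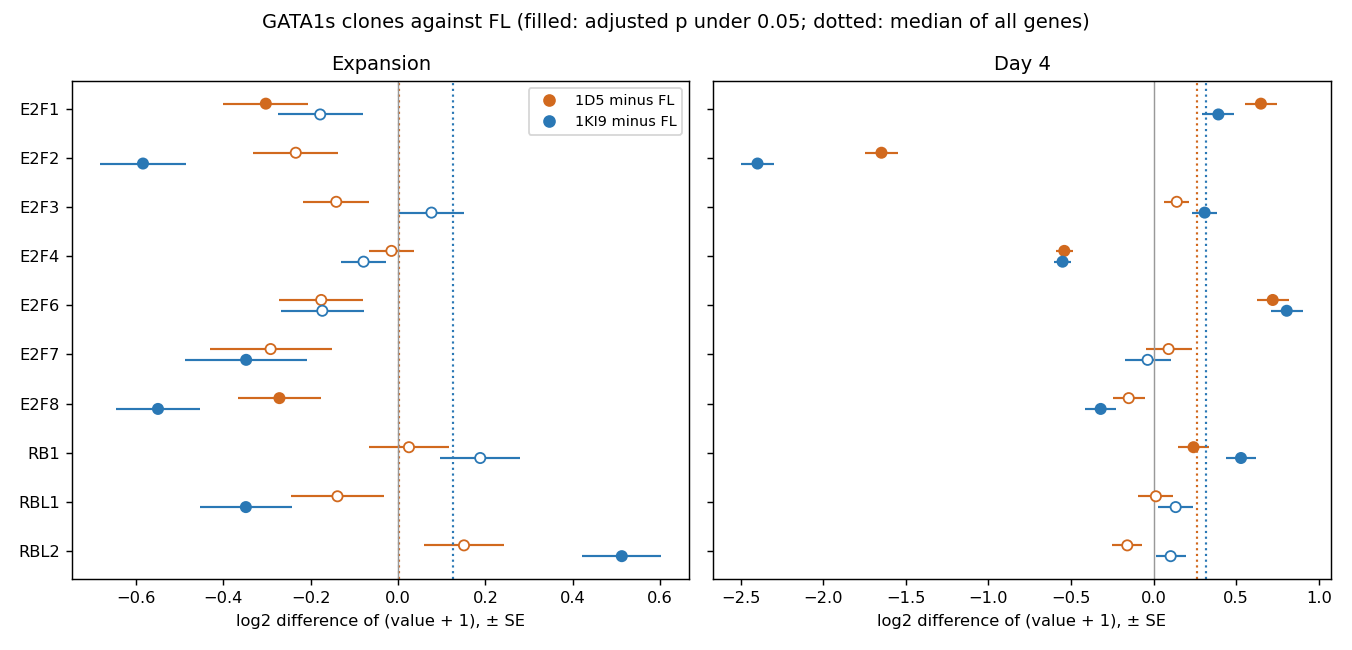
Log2 difference of (value + 1) from FL with SE (x axis) for each gene (y axis) in 1D5 and 1KI9, in expansion (left) and at day 4 (right, wider scale). Filled points had adjusted p under 0.05, and dotted lines mark the median of all genes. At day 4 E2F2 lay at −1.65 and −2.40 and E2F4 at −0.54 and −0.55, below the medians of 0.26 and 0.32, while E2F6 lay above them at 0.72 and 0.81.

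Between the GATA1s clones, 4 of the 10 genes were called in expansion, against 40.6% of all genes (33.4% higher in 1KI9, 7.16% lower). RBL2 was higher in 1KI9 by 0.36 (adjusted p = 0.00396) and E2F3 by 0.22 (adjusted p = 0.0278), and E2F2 and E2F8 were lower by 0.35 and 0.28 (adjusted p = 0.00827 and 0.0274). With only the compared libraries in the fit, RBL2 was the 1 gene still called. The E2F3 call was lost when rescaled (0.09, adjusted p = 0.204), and without 1D5 replicate 3, 1KI9 replicate 2 or 1KI9 replicate 3, at 0.18 with adjusted p = 0.108 without the first. That of E2F8 was lost without 1D5 replicate 1, 1D5 replicate 2 or 1KI9 replicate 1, at −0.22 with adjusted p = 0.11 without the last. At day 4, 2 were called against 19.2% of all genes (12.5% higher, 6.69% lower). E2F2 was lower in 1KI9 by 0.75 (SE 0.10, adjusted p = 2.74e-05), and RB1 was higher by 0.29 (adjusted p = 0.035), a call lost without 1D5 replicate 2 (0.19, adjusted p = 0.185), 1KI9 replicate 1 or 1KI9 replicate 3. With only the compared libraries in the fit the RB1 call was lost as well (adjusted p = 0.0595). E2F1, at −0.26 (adjusted p = 0.0741), passed with that fit (adjusted p = 0.0191) and when rescaled (−0.31, adjusted p = 0.0142).

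The difference from FL itself differed between the conditions for 8 of the 10 genes, against 65.1% of all genes. It was more positive at day 4 for 5 (background 45.4%) and more negative for 3 (background 19.7%). Values were −1.61 for E2F2, −0.50 for E2F4 and −0.36 for RBL2, and 0.94 for E2F6, 0.76 for E2F1, 0.32 for RBL1, 0.28 for RB1 and 0.26 for E2F3, against a median of 0.21 for all genes. After scaling by the median of ratios or without globin and mitochondrial genes, 5 remained called. E2F1 and E2F6 were higher and E2F2, E2F4 and RBL2 lower, where 61.3% of all genes were called with the median of ratios (29.3% higher, 31.9% lower). RBL1 lost its call without any 1 of 10 libraries and RB1 without any 1 of 8, at 0.25 (adjusted p = 0.13) and 0.23 (adjusted p = 0.113) without FL day-4 replicate 1. The E2F3 call was lost without FL expansion replicate 2 (0.22, adjusted p = 0.0632) or FL day-4 replicate 1. Without FL expansion replicate 1, all 10 genes were called.

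Transcripts of the DP proteins, dimer partners of the classical E2Fs, changed in opposite directions. Counts of list genes called in both clones are read against all genes, of which 17.5% were higher and 8.98% lower in expansion, 51.2% and 14.3% at day 4, and 27.6% and 29.4% at day 4 when rescaled. TFDP1 fell in both clones against FL by a mean log2 difference of 0.38 in expansion and 0.72 at day 4, where it was 60.9 ± 0.312 in FL, 33.7 ± 0.506 in 1D5 and 39.8 ± 1.6 in 1KI9 (SD, n = 3). TFDP2 rose in both by a mean of 0.36 in expansion and 0.50 at day 4 (79.5 ± 3.45, 116 ± 2.65 and 110 ± 3.27), and rescaled it was no longer called in both at day 4. Of 7 MuvB and DREAM genes, none was called in both clones in expansion. At day 4 LIN52, a MuvB core subunit, was higher (mean 0.72) and FOXM1, the mitotic activator that binds MuvB, lower (−0.38). Rescaled, 1 of the 7 was higher and 4 were lower.

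Among 9 members of the variant Polycomb complex that holds E2F6, 6 were higher in both clones at day 4 and 0 lower, with a median of 0.39 against 0.29 for all genes. The count of 6 of 9 stands beside 51.2% of all genes. RYBP (mean 0.90), MGA (0.69), PCGF6 (0.44) and L3MBTL2 (0.42) led. Rescaled, 3 were higher and 2 lower, with a median of 0.07 against 0.006 for all genes. The counts thus depended on the scaling, while the median stayed slightly above that of all genes. In expansion PCGF6 was the 1 gene called, at −0.44, and without FL replicate 1, 1 was higher and 3 were lower. Of 6 corepressors of the pocket proteins, 0 were called in both clones in expansion, and at day 4 SIN3B (0.69) and HDAC2 (0.41) were higher. The list median at day 4 was 0.07, against 0.29 for all genes. Rescaled, HDAC2 was no longer called, and 1 of the 6 was higher and 3 were lower. The rescaled median was −0.24 against 0.006, so the list median lay below that of all genes under either scaling.

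The kinases that phosphorylate pocket proteins and their inhibitors moved in both directions. Of 8 G1 cyclin and kinase genes, 7 passed the low-value filter. At day 4 CCND1 (cyclin D1, mean 1.59) and CDK4 (0.63) were higher in both clones, and CCNE1 (cyclin E1, −0.66) and CCNA2 (cyclin A2, −0.58) lower. Rescaled, 2 of the 7 were higher and 5 lower. CCND1 at day 4 was 2.21 ± 0.0777 in FL, 8.07 ± 0.614 in 1D5 and 9.40 ± 1.56 in 1KI9. CCND3, the cyclin D most abundant at day 4, was 306 ± 5.11 in FL, 327 ± 5.94 in 1D5 and 254 ± 12.9 in 1KI9. In expansion CCND3 was higher (0.42) and CCND2 (−0.66) and CCNA2 (−0.38) lower.

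Of 7 inhibitors of those kinases, 4 were higher in both clones in expansion and 0 lower, with a median of 0.68 against 0.06 for all genes. CDKN1C (p57) went from 0.657 ± 0.235 TPM in FL to 45.9 ± 15.2 in 1D5 and 22.4 ± 4.26 in 1KI9. For CDKN1A (p21) FL gave 52.1 ± 11.9 TPM, 1D5 99.6 ± 29.4 and 1KI9 314 ± 36.9, and CDKN2C (p18) and CDKN2D (p19) rose by means of 0.68 and 0.55. At day 4, 3 were higher and 3 lower. CDKN1A then stood at 316 ± 11.8 for FL, 962 ± 31.8 for 1D5 and 988 ± 45.5 for 1KI9, and CDKN1C was above FL by a mean of 1.13, at 1.73 ± 0.0702 for FL, 5.82 ± 0.698 for 1D5 and 4.22 ± 0.426 for 1KI9. CDKN1B (p27), an inhibitor linked to erythroid cell cycle exit, was 41.0 ± 0.271 in FL, 17.0 ± 0.237 in 1D5 and 15.01 ± 0.419 in 1KI9 at day 4, a mean difference of −1.31. CDKN2C and CDKN2D were lower at day 4, by means of 1.02 and 0.96, after having been higher in expansion.

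Genes that E2F proteins are known to switch on for DNA replication were lower at day 4 in every clone. All 25 of the G1/S targets were lower at day 4 than in expansion in each of the 3 clones. Of all genes, 57.2% were lower in FL, 47.0% in 1D5 and 52.2% in 1KI9. The medians for FL, 1D5 and 1KI9 were −1.88, −1.69 and −1.45, against −0.38, −0.15 and −0.25 for all genes. Against FL in expansion, 4 of 25 were lower in both clones and 0 higher, with a median of −0.25 against 0.06. These were RRM2, a ribonucleotide reductase subunit (mean −0.61), MCM10 (−0.52) and MCM2 (−0.39) of the replication origin, and the phosphatase CDC25A (−0.46). Rescaled, 8 of 25 were lower. Without FL replicate 1 the count was 10 of 25, where 11.7% of all genes were lower. At day 4, 5 were higher and 7 lower, led by ORC1 (−0.59), TK1 (−0.55) and RRM2 (−0.46), with UNG, which removes uracil from DNA, at 0.42. Rescaled, 0 were higher and 17 lower. The GATA1s clones also differed from each other in expansion. Of the 25, 19 were lower in 1KI9 than in 1D5 and 0 higher, beside 7.16% of all genes lower. The median of that difference was −0.25, against 0.11 for all genes, and rescaled all 25 were lower. Between these clones at day 4, 0 were called as deposited.

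The G2/M genes that DREAM is known to repress in resting cells were mostly lower in the GATA1s clones at day 4. Of 23, 18 were lower in both clones than in FL and 0 higher, with a median of −0.42 against 0.29 for all genes, and rescaled all 23 were lower. Of all genes, 14.3% were lower as deposited and 29.4% rescaled. NUSAP1, a spindle protein (−1.10), BIRC5, survivin (−0.82), and the proliferation marker MKI67 (−0.79) followed UBE2C (−3.22), the lowest. UBE2C was already called lower in both clones in expansion, with a larger mean difference of −4.69. FL averaged 40.3 ± 6.06 TPM (SD, n = 3) for UBE2C during expansion, against 0.51 ± 0.233 (1D5) and 0.71 ± 0.269 (1KI9). By day 4 FL averaged 15.9 ± 0.949, against 0.727 ± 0.0987 (1D5) and 0.910 ± 0.197 (1KI9). UBE2C is known to have near-identical copies in the genome, and whether they share its reads was not tested. In expansion 5 were lower and 1 (BUB1) higher, and without FL replicate 1, 12 were lower, against 11.7% of all genes. Between the GATA1s clones in expansion, 13 of 23 were lower in 1KI9 than in 1D5 and 0 higher (all genes 7.16% lower). The median of that difference was −0.22 against 0.11, and rescaled 20 were lower. From expansion to day 4, 23 fell in FL and 22 in each GATA1s clone, beside 57.2% of all genes in FL, 47.0% in 1D5 and 52.2% in 1KI9. E2F letters occurred upstream of 11 of 23 G1/S targets with a promoter entry (47.8%) and 2 of 19 G2/M targets (10.5%), against 3.4% of the 27305 genes of the promoter table. The letters TTTGAA occurred upstream of 12 of the 19 G2/M targets (63.2%) and 2 of the 23 G1/S targets (8.7%), against 16.1%.

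Of 3 genes for E2F turnover, CCNF, which targets E2F proteins for destruction, was lower in both clones in expansion (−0.36) and at day 4 (−0.54). Of 5 apoptotic targets of E2F1, BBC3 was higher in both clones in expansion (0.81) and lower at day 4 (−0.50), TP73 was lower at day 4 (−0.68), and BCL2L11 higher (0.80). Of the 11 erythroid markers, 10 were lower in both clones at day 4 and GATA1 was higher, and the list median was −2.0. The monocyte and neutrophil level was raised in both clones at day 4, and its part in these differences was not tested.

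**Figure D5:**
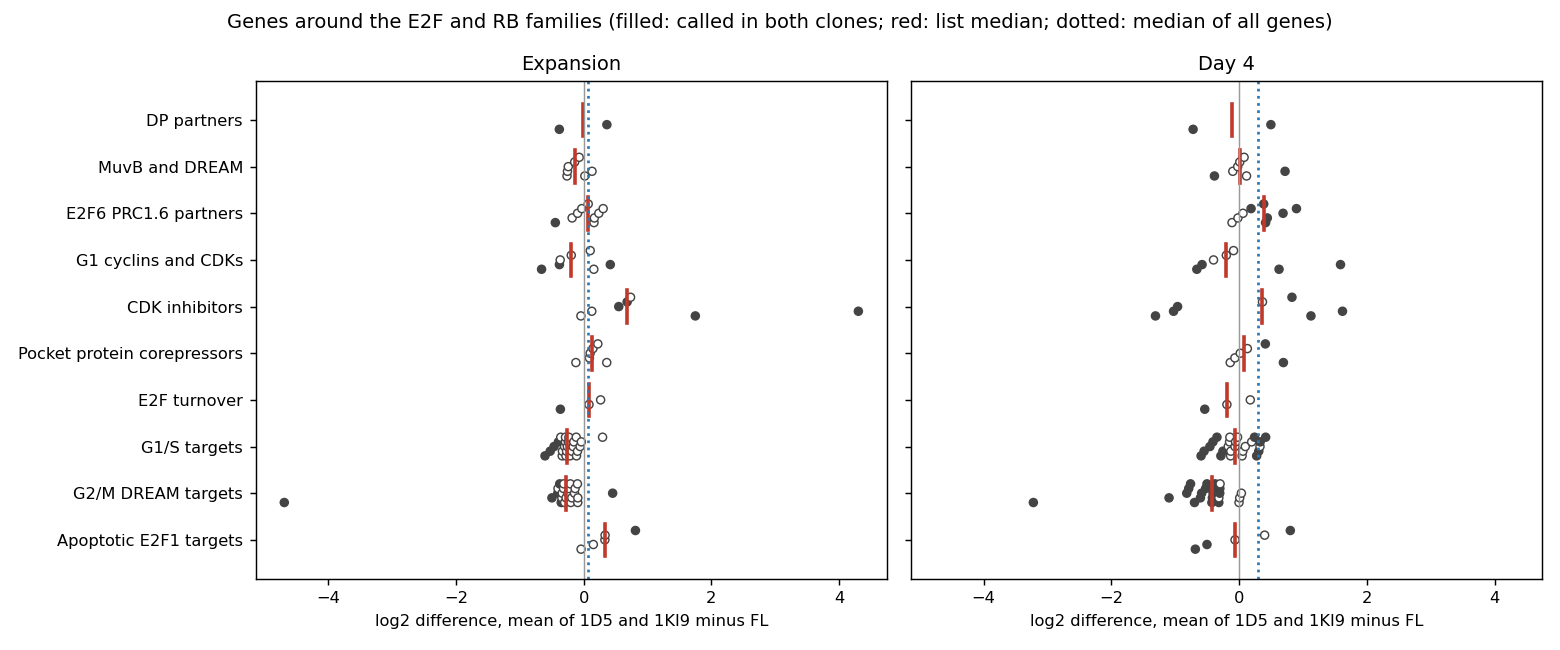
Mean log2 difference of 1D5 and 1KI9 from FL (x axis) for each tested gene of the pathway lists (y axis), in expansion (left) and at day 4 (right). Filled points were called in both clones, red bars are list medians and dotted lines the median of all genes, 0.06 and 0.29. The G2/M targets at day 4 lay to the left of the dotted line, with a median of −0.42, and the CDK inhibitors were spread on both sides.

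Likeness was measured as Pearson's r over the 18 libraries after subtracting each condition's mean, against 11015 genes. The libraries share the same clones and scaling, so a high r is a description. E2F2 was most like RBM38 (0.99), an RNA-binding protein known to act on splicing in late erythroid cells, and TMEM74B (0.99). E2F4 was most like DCLRE1B (0.98) and TTC25 (0.98), and E2F6 most like ZNF146 (0.97) and MTHFD1 (0.97). E2F1 was closest to XBP1 (0.95) and CDH24 (0.95), E2F3 to IMPAD1 (0.96) and NUDT3 (0.96), and E2F8 to PLA2G6 (0.96) and RRM2 (0.95). E2F7 was closest to RIBC2 (0.90) and LRIG3 (0.85), RB1 to AKAP11 (0.95) and TNKS2 (0.95), RBL1 to DNA2 (0.88) and TUBGCP4 (0.87), and RBL2 to PAN3 (0.94). Within the families E2F2 and E2F4 had r of 0.93 and E2F3 and RB1 0.90, while E2F6 gave −0.84 with E2F4 and −0.83 with E2F2.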

How the data were processed

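Poly(A) RNA of 18 libraries from 3 HUDEP1 clones was sequenced with a stranded protocol, per the labels. The submitters' processing notes name Trim Galore 0.60, STAR 2.7, RSEM 1.31 and build hg38. The authors deposited 1 table, with TPM for expansion and, for day 4, a TPM-like signal whose further scaling the sources used here do not give. Because the day-4 sums exceed what TPM allows in FL, the day-4 unit differs from the TPM first assumed, and the same log-scale test was kept. Symbols listed as 0 (312 genes) were named by GENCODE 29. Of the genes past the filter, 68 listed at 0 throughout expansion and 27 throughout day 4 were left out where that condition entered. RSEM divides reads among similar transcripts, and neither unit keeps read depth.

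Values were analysed as log2(value + 1) with limma 3.58.1 (R 4.3.3): genes with at least 1 in at least 3 libraries, a mean for each of 6 groups, variances following the level, and Benjamini-Hochberg adjustment over all genes with a threshold of 0.05. Calls in both clones needed 1D5 and 1KI9 each to pass, in the same direction. The interaction compares the mean of both clones minus FL between the conditions. The fit was tested on simulated data. No libraries were identical, and within-group correlations of log values lay between 0.992 and 0.998. Alternatives were a pseudocount of 0.1, no filter, scaling by the median of ratios or without globin and mitochondrial genes, each library left out, only the compared libraries, no variance trend and the replicate number as a block. The pathway lists without FL expansion replicate 1 were added after seeing the data. The genes and lists were chosen with earlier results of these data known. All members are named, and of each list at most 4 genes a condition, those called in both clones with the largest mean difference, beside the 2 genes most like each member, of which 1 is not reported here. CCND3 and CDKN2D at day 4 were added after their values were seen.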

Additional observations from a re-analysis of the deposited data

Results flagged for a closer look

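The difference between the GATA1s clones and FL changed between expansion and day 4 for 8 of the 10 genes, by the test of that change itself (limma, adjusted over all genes). On the log2 scale it was −1.61 for E2F2 (adjusted p = 5.59e-09), −0.50 for E2F4 (adjusted p = 3.11e-06) and −0.36 for RBL2 (adjusted p = 0.00881). It was 0.94 for E2F6 (adjusted p = 2.21e-06), 0.76 for E2F1 (adjusted p = 2.66e-05), 0.32 for RBL1 (adjusted p = 0.0401), 0.28 for RB1 (adjusted p = 0.0364) and 0.26 for E2F3 (adjusted p = 0.0208). The median of all genes was 0.21, near the values of RB1 and E2F3. Calls were common, at 65.1% of all genes.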

How the results depend on the processing

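Each of the 100 differences of single genes was recomputed under each alternative. With no filter or no variance trend all 100 kept their direction and side of the threshold, as did 97 with a pseudocount of 0.1. Fewer did so on leaving out single libraries (62), with median-of-ratios scaling (68), with scaling outside globin and mitochondrial genes (77) and with only the compared libraries (82 of the 90 that could be recomputed). The block by replicate number kept 98 of 100. Whether replicate numbers pair the samples was not settled. Of 18 same-number correlations of deviations within a condition, 6 were over 0.1 (range −0.152 to 0.429). The highest were between 1D5 and 1KI9 at day 4, at 0.429 for replicate 2 and 0.272 for replicate 3. Correlations between different numbers are not given, so these values cannot decide it. With the replicate block 7 of 8 genes were called in the interaction and 3 against 2 between the GATA1s clones at day 4, and the other counts did not change. In both clones against FL in expansion the 1 call became 3 with median-of-ratios scaling and 0 with scaling outside globin and mitochondrial genes, with a pseudocount of 0.1 or with only the compared libraries, and ranged from 0 (without FL replicate 2 or 1D5 replicate 3) to 3 (without FL replicate 1) on leaving out single libraries. The interaction fell from 8 to 5 under either scaling and ranged from 5 (without FL expansion replicate 2 or FL day-4 replicate 1) to 10 (without FL expansion replicate 1). The comparison of the GATA1s clones in expansion fell from 4 to 1 with only the compared libraries, and ranged from 3 to 4. At day 4 that comparison ranged from 1 (without 1D5 replicate 2, 1KI9 replicate 1 or 1KI9 replicate 3) to 3 (without 1D5 replicate 3), the count at day 4 in both clones from 4 to 6, and day 4 against expansion from 9 to 9 in FL, 5 to 8 in 1D5 and 7 to 8 in 1KI9. Over all genes, 2919 called in both clones in expansion became 1431 with only the compared libraries, and 2123 between the clones at day 4 became 1282 without 1KI9 day-4 replicate 3. Median-of-ratios scaling changed the split of all genes called in both clones at day 4 from 51.2% higher and 14.3% lower to 27.6% and 29.4%.

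Signs that changed were as follows, and apart from the scaling itself the cause was not tested. With median-of-ratios scaling, 1D5 minus FL at day 4 became −0.15 for E2F3, −0.016 for E2F7, −0.052 for RB1 and −0.22 for RBL1, and 1KI9 minus FL −0.035 for E2F3, −0.14 for RBL1 and −0.25 for RBL2 at day 4 and −0.064 for E2F3 in expansion. Between the GATA1s clones in expansion E2F1 became −0.0050 and E2F6 −0.13. Day 4 minus expansion became 0.11 for E2F4 in FL and −0.060 in 1D5 and −0.032 in 1KI9 for E2F3. With scaling outside globin and mitochondrial genes, E2F4 in 1D5 minus FL in expansion became 0.020, RBL1 in 1D5 minus FL at day 4 −0.019, and E2F6 between the GATA1s clones in expansion −0.052. Day 4 minus expansion then became 0.14 for E2F3 and 0.32 for E2F4 in FL, 0.17 for E2F1, 0.12 for E2F2, 0.068 for E2F6 and 0.010 for RB1 in 1D5, and 0.20 for E2F6 and 0.19 for RB1 in 1KI9. On leaving out single libraries (leave-one-out), 1D5 minus FL in expansion reached 0.014 for E2F4 and −0.034 for RB1, and at day 4 −0.055 for RBL1. Day-4 1KI9 minus FL reached 0.017 for E2F7. Between the GATA1s clones, expansion reached −0.0046 for E2F1, −0.025 for E2F6 and 0.036 for E2F7, and day 4 reached 0.023 for E2F4 and −0.00025 for E2F6. Day 4 minus expansion in 1KI9 reached −0.050 for E2F3. None of these 10 leave-one-out values passed the test before or after. Depth is unknown, so no detection limit can be given for the low values of E2F7 and E2F8.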
